A study of Mus musculus with 6 samples.

Results

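The COP9 signalosome is represented here by the 9 rows of the gene count table named *Gps1*, *Cops2*, *Cops3*, *Cops4*, *Cops5*, *Cops6*, *Cops7a*, *Cops7b* and *Cops8*, out of 24499 genes in all. The rows were taken by name, as the subunits of a complex built from the same protein folds as eIF3, and the choice of this complex was made with earlier results of these data known. All 9 passed the filter on low counts, with between 617 and 6279 counts in each library, and 13296 genes were tested in total.

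The samples were day 3 iGCBs (in vitro germinal center B cells), made by culturing naïve splenic B cells with 40LB feeder cells irradiated with 120 Gy and with 1 ng/ml IL-4. 40LB cells are mouse fibroblasts that display CD40L and secrete BAFF. There were 3 cKO libraries, from *Eif3e* fl/fl Cγ1Cre Rosa26-YFP LSL mice, and 3 control libraries, whose genotype the labels give only as control. In a figure on its mice, the study defines control mice as Cγ1Cre Rosa26-YFP LSL, and it gives no separate definition for this culture. All were on the C57BL/6J background and all were sorted as YFP+, a reporter that Cre switches on. Cγ1Cre comes on when the Ig γ1 constant region is transcribed, so *Eif3e* was deleted only after the B cells had been activated, and the sort was for cells in which Cre had acted. The labels call the 3 samples of a group repeats and do not say whether each came from its own mouse. The study describes 3 biological replicates for this RNA-seq. The p-values measure the spread between these samples. The age of the mice was not given in the labels.

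The COP9 signalosome removes the ubiquitin-like protein NEDD8 from cullins, the scaffolds of the cullin-RING ubiquitin ligases, and rounds of NEDD8 attachment and removal let a cullin exchange its substrate receptor. It shares its plan with the lid of the 26S proteasome and with the translation initiation factor eIF3: several subunits with a PCI domain form the scaffold and a pair with an MPN domain sits on it. In the signalosome the MPN pair is CSN5, encoded by *Cops5*, which holds the metalloprotease active site, and CSN6, encoded by *Cops6*, which has none. *Gps1* encodes CSN1, and CSN7 exists in 2 forms, CSN7A and CSN7B, encoded by *Cops7a* and *Cops7b*. In B cells, cullin-RING ligases control among others the turnover of BCL6 and of inhibitors of NF-κB and of the cell cycle.

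Between 39079582 and 45504570 counts were assigned to genes per library, so that 3 counts, the floor used here, were between 0.0661 and 0.0763 CPM, the unit of all levels here (counts relative to the scaled library total). The targeted gene *Eif3e* went from 406 ± 16.5 CPM in control to 158 ± 13.1 CPM in cKO (SD, n = 3 each), with a log2 fold change of −1.36 (adjusted p = 6.71e-07 by edgeR's quasi-likelihood test). The summed RNA of 7 B cell markers was between 4693 and 4861 CPM in cKO and between 4545 and 4917 CPM in control libraries. Of the 7, 3 were called higher and 3 lower. Such calls were common: over all genes tested, 24.1% were called higher and 24.5% lower, and for 58.7% the groups did not overlap. The 5 germinal center markers summed to between 260.8 and 274.1 CPM in cKO against 305.0 and 356.0 CPM in control, and the 5 plasma cell markers to between 646 and 788 CPM against 831 and 852 CPM, so that neither pair of ranges overlapped. The members did not move together: 1 germinal center marker (*Fas*) was called higher and 3 lower, and 2 plasma cell markers (*Irf4* and *Sdc1*) were called higher and 3 lower, among them *Jchain*. The 12 fibroblast markers, which feeder cells would bring, summed to between 101.9 and 127.5 CPM in cKO and between 79.0 and 147.7 CPM in control, with *Postn* and *Lum* at 0 in every library. *Fn1* was the only one of the 8 tested fibroblast markers that was called, and it was higher in cKO. The 7 myeloid markers were low in both groups, between 4.08 and 6.06 CPM in cKO and between 1.22 and 2.45 CPM in control, with *Cd14*, *S100a8* and *S100a9* at 0, and 1 of the 2 that could be tested, *Adgre1*, was called higher and made up most of the sum. The 6 T cell markers stayed under 0.488 CPM with *Cd3e* at 0. The part of these shifts in the results on the subunits was not tested, and in bulk RNA fewer cells of one kind and less RNA per cell cannot be told apart. *Xist* RNA was present in cKO replicate 2 and in control replicates 1 and 2 and near 0 in the other 3 libraries, so the groups also differed in the sexes of the mice. Neither group can therefore have come from a single mouse.

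RNA of 6 of the 9 subunits was higher in cKO iGCBs (*Gps1*, *Cops5*, *Cops6*, *Cops7a*, *Cops7b* and *Cops8*), RNA of 2 was lower (*Cops3* and *Cops4*), and *Cops2* was not called either way. Of all genes tested, 24.1% were called higher and 24.5% were called lower by the same rule, an adjusted p under 0.05. The changes were small: past 1.5-fold there was 1 subunit higher, *Cops7b*, and 0 lower, where 10.4% of all genes were higher and 10.6% were lower past that fold. The groups did not overlap for 8 of the 9 subunits, and for 58.7% of all genes. The median log2 fold change of the 9 subunits was 0.24, beside −0.004 over all genes, and the values spread from −0.28 to 0.66. Among the 8 called subunits, the sign was the same for all 8 in the 3 libraries with *Xist* and in the 3 without it, but each of these comparisons has a group of 1 library (cKO replicate 2 alone with *Xist*, control replicate 3 alone without), so they are values with no test.

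**Figure D1:**
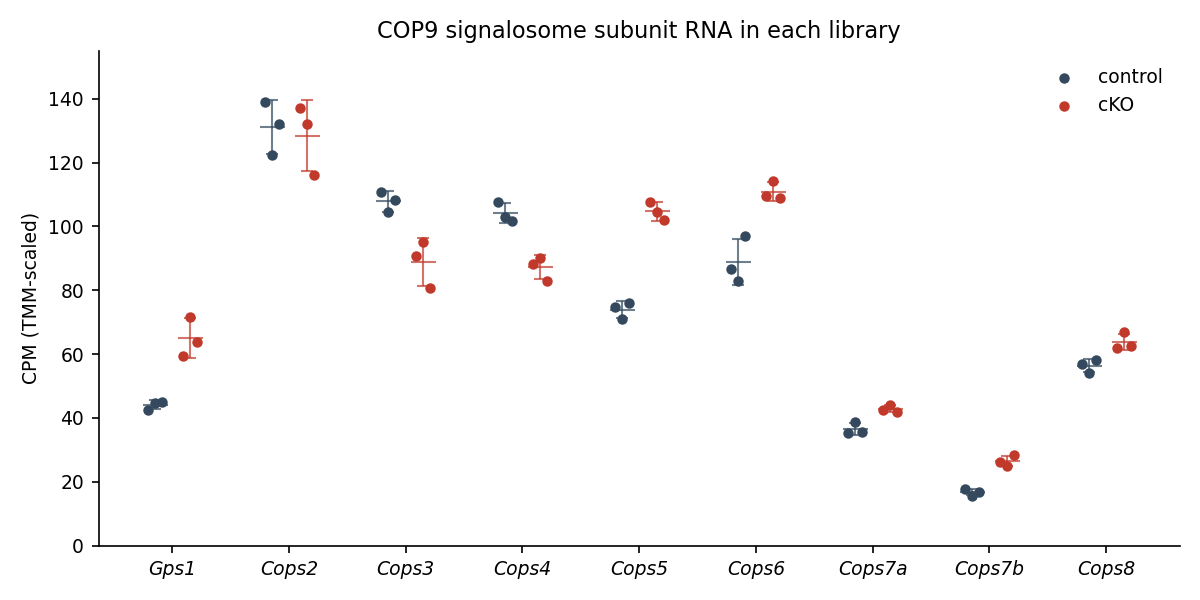
Level of each COP9 signalosome subunit in CPM (scaled by TMM) on a linear axis from 0. Each point is a library, the horizontal bars are group means and the whiskers are the SD (n = 3 per group). The cKO points lie above all control points for 6 genes, below them for *Cops3* and *Cops4*, and among them for *Cops2*.

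*Cops5*, the gene of the deneddylase itself, lies on chromosome 1 (GRCm38, 10024601 to 10038168, minus strand). Its level was 107.7, 104.4 and 101.9 CPM in cKO replicates 1 to 3 and 74.9, 71.0 and 75.9 CPM in control replicates 1 to 3. The lowest cKO library was thus well above the highest control library, and the libraries within each group were close together. The group means were 105 ± 2.88 and 73.9 ± 2.58 CPM (SD, n = 3 each), and the log2 fold change was 0.50 (SE 0.0538, edgeR adjusted p = 4.13e-05), a ratio of 1.42 with a 95% interval from 1.30 to 1.54. The ratio held in every setting tried, with log2 fold changes between 0.47 and 0.52. *Cops6*, the partner of *Cops5* in the MPN pair, lies on chromosome 5 (138161071 to 138164646, plus strand). It was measured at 109.6, 114.2 and 108.8 CPM in cKO libraries, against 86.7, 82.8 and 96.9 CPM in the controls, with control replicate 3 nearest to the cKO values but still below them. Its log2 fold change of 0.32 (SE 0.0656, edgeR adjusted p = 0.00242) fell to 0.17 among the libraries without *Xist*, which include control replicate 3, and was 0.43 among those with it. Both genes of the catalytic pair were therefore higher in cKO, by 1.42 and 1.25 times.

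*Cops7b* was the subunit with the largest fold and the lowest level. It lies on chromosome 1 (86582904 to 86609375, plus strand). The cKO libraries had 26.2, 24.98 and 28.2 CPM and the control libraries 17.7, 15.7 and 16.9 CPM, with a wide gap between the groups. The log2 fold change was 0.66 (SE 0.0953, edgeR adjusted p = 0.000284), a ratio of 1.58 with a 95% interval from 1.36 to 1.83. Among all genes tested, 24.9% changed by at least as much in either direction. Its paralog *Cops7a* (chromosome 6, 124958413 to 124965538, minus strand) encodes the other form of the same subunit. *Cops7a* was at 42.6, 44.2 and 41.9 CPM in cKO libraries, against 35.2, 38.7 and 35.5 CPM in the controls. The cKO libraries were again the higher ones, but the gap was narrow, and the log2 fold change was 0.24 (SE 0.0754, edgeR adjusted p = 0.0256). That call was lost when any one library other than control replicate 2 was left out, with adjusted p values between 0.0537 and 0.0750 and log2 fold changes between 0.21 and 0.25.

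The balance of the paralogs was compared as the ratio of their counts within a library, which needs no scaling between libraries. *Cops7b* made up 38.1%, 36.1% and 40.2% of the counts of the pair in cKO replicates 1 to 3 and 33.5%, 28.9% and 32.2% in control replicates 1 to 3. Each cKO library was above each control library. The log2 ratio of *Cops7b* to *Cops7a* averaged −0.70 ± 0.126 over cKO and −1.12 ± 0.162 over control libraries (SD, n = 3 each), which differ by 0.42. An exact two-sided permutation test gave p = 0.1, the smallest p that 3 libraries against 3 allow, so the test cannot pass 0.05 here. Per length of transcript, the pair together reached 37.9 ± 0.614 CPM per kb in cKO against 30.2 ± 1.00 CPM per kb in control. *Cops7a* remained the more abundant of the pair in all 6 libraries.

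*Gps1*, whose product CSN1 is one of the large PCI subunits, lies on chromosome 11 (120784272 to 120789102, plus strand). It was measured at 59.5, 71.7 and 63.8 CPM in cKO libraries, against 42.6, 44.7 and 45.1 CPM in the controls. The cKO libraries were all higher and more spread out, with replicate 2 at the top. The log2 fold change was 0.56 (SE 0.0792, edgeR adjusted p = 0.000247), a ratio of 1.47 with a 95% interval from 1.30 to 1.66. It was 0.72 among the libraries with *Xist*, which include cKO replicate 2, and 0.45 among those without.

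*Cops8*, the gene of the smallest PCI subunit, was raised the least among the called genes. It lies on chromosome 1 (90602981 to 90613341, plus strand). Its level was 62.0, 66.8 and 62.7 CPM in cKO libraries, against 56.7, 54.1 and 58.1 CPM in the controls. The groups were separate, though the lowest cKO and the highest control library were close. The log2 fold change was 0.18 (SE 0.0628, edgeR adjusted p = 0.0360). The call was lost without cKO replicate 2 or 3 or without control replicate 1 or 2, where adjusted p was between 0.0572 and 0.127.

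The 2 subunits that were lower encode PCI subunits of the scaffold. *Cops3* (chromosome 11, 59817795 to 59839838, minus strand) was at 90.8, 95.1 and 80.7 CPM in cKO libraries, against 110.8, 104.4 and 108.4 CPM in the controls. Every cKO library was below every control library, cKO replicate 3 by the most. The log2 fold change was −0.28 (SE 0.0672, edgeR adjusted p = 0.00612), a ratio of 0.824. It was −0.18 among the libraries with *Xist* and −0.34 among those without. *Cops4* (chromosome 5, 100518309 to 100547803, plus strand) was at 88.2, 90.2 and 83.0 CPM in cKO libraries, against 107.7, 103.0 and 101.7 CPM in the controls. The groups were again separate, and the libraries within each were close together. The log2 fold change was −0.26 (SE 0.0556, edgeR adjusted p = 0.00333), a ratio of 0.837. Both genes were called lower in all 14 alternative settings of the fit.

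*Cops2*, which encodes a further PCI subunit of the scaffold, lies on chromosome 2 (125830304 to 125859139, minus strand) and had the highest CPM of the 9 genes in both groups. Its level was 137.2, 132.0 and 116.1 CPM in cKO libraries, against 139.1, 122.4 and 132.0 CPM in the controls. The groups overlapped, and the highest and the lowest library were not in the same group. The log2 fold change was −0.03 (SE 0.0735, edgeR adjusted p = 0.765) with a 95% interval from −0.19 to 0.13, which leaves out changes as large as those of *Cops3*, *Cops4*, *Cops5* or *Cops6*. *Cops9*, the short additional subunit, listed in the table under its older name *Myeov2*, is not among the 9 genes. It averaged 31.0 ± 1.57 CPM in cKO against 31.1 ± 1.88 CPM in control (SD, n = 3 each), with a log2 fold change of −0.01 (adjusted p = 0.963 by edgeR).

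Levels of different subunits were compared per length, as CPM per kb of transcript. In control iGCBs the order was *Cops3* (65.5 ± 1.96), *Cops4* (59.3 ± 1.80), *Cops2* (53.2 ± 5.19), *Cops6* (49.7 ± 4.06) and *Cops5* (43.5 ± 1.52), all in CPM per kb (SD, n = 3). Then, after a gap, came *Cops8* (24.6 ± 0.884), *Gps1* (23.3 ± 0.941), *Cops7a* (22.7 ± 1.40) and *Cops7b* (7.52 ± 0.458). The neighbours *Cops4* and *Cops2*, *Cops2* and *Cops6*, *Cops8* and *Gps1*, and *Gps1* and *Cops7a* overlapped in their libraries, while *Cops6* and *Cops5* did not. In cKO iGCBs the catalytic pair led, with *Cops6* at 62.0 ± 1.64 and *Cops5* at 61.6 ± 1.69 CPM per kb, which overlapped each other. *Cops2* (54.4 ± 5.76), *Cops3* (54.0 ± 4.51) and *Cops4* (49.7 ± 2.14) followed, each overlapping the next. *Gps1* stood alone at 33.7 ± 3.16 CPM per kb, above *Cops8* (27.9 ± 1.13) and *Cops7a* (25.98 ± 1.08), and *Cops7b* was again the lowest at 11.9 ± 0.738 CPM per kb. Per length, *Cops5* thus moved from below to above the scaffold genes *Cops2*, *Cops3* and *Cops4*. In CPM the move held against *Cops3* and *Cops4*, while *Cops2* stayed above *Cops5* in cKO (means of 128.4 against 104.7 CPM). The move past *Cops2* therefore rests on the division by length. The MPN pair went from 26.7% ± 1.11 to 32.5% ± 0.770 of the summed level per length (SD, n = 3 each).

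**Figure D2:**
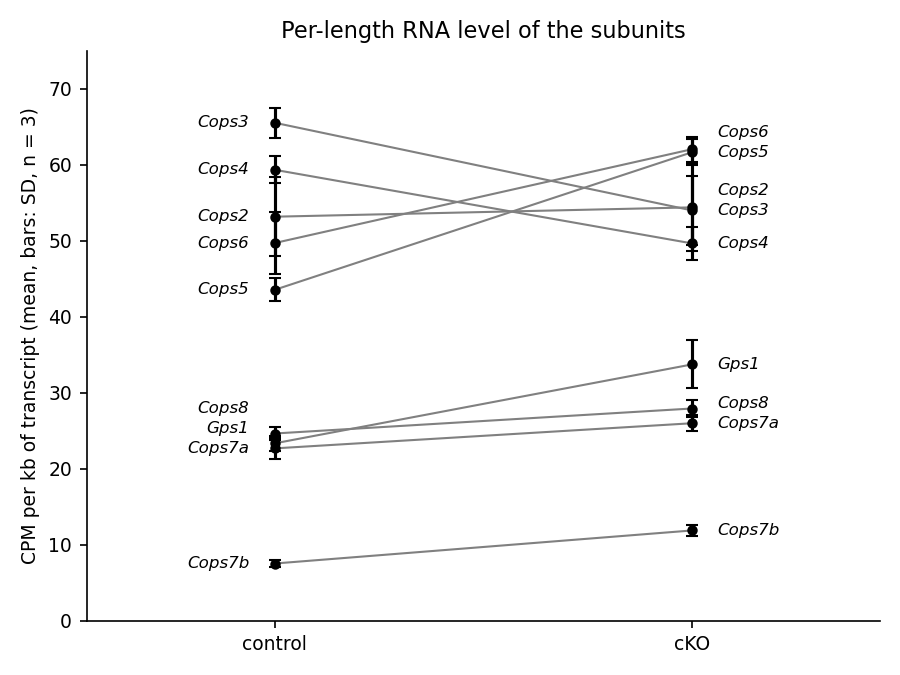
Mean level of each subunit in CPM per kb of transcript in control (left) and cKO (right) iGCBs, on a linear axis from 0, with bars for the SD (n = 3) and lines that join the same gene. The lines of *Cops5* and *Cops6* cross those of *Cops3* and *Cops4*, and the spread between the genes is smaller on the right.

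The levels of the 9 genes were closer to each other in cKO than in control iGCBs. The coefficient of variation over the 9 levels per length was 44.5%, 41.9% and 41.1% in cKO replicates 1 to 3 and 53.0%, 50.2% and 50.8% in control replicates 1 to 3. The ranges did not overlap, and without *Cops7b* the means were 32.2% and 40.3%. The ratio of the highest to the lowest level was 5.31 ± 0.456 in cKO against 8.73 ± 0.273 in control. *Cops7b* was the lowest gene in both groups, and without it the mean ratios were 2.416 in cKO and 2.935 in control. The ratio of *Cops5* to *Cops3* CPM, a pair singled out after the values were seen, was 1.18 in cKO replicate 1, 1.10 in replicate 2 and 1.26 in replicate 3, against 0.676, 0.680 and 0.700 in control replicates 1 to 3. The summed RNA of the 9 genes was 718 ± 28.7 CPM in cKO against 660 ± 19.7 CPM in control. These are descriptions of RNA levels over genes chosen together and carry no test.

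The transcript table was used to ask whether the transcripts of a subunit gene changed their share within the gene. *Cops3*, *Cops4*, *Cops6*, *Cops7b* and *Cops8* each had 1 RefSeq transcript, so the question was open to *Cops2*, *Cops5*, *Cops7a* and *Gps1* with 11 transcripts tested. None of the 11 was called by edgeR's diffSpliceDGE, where 0.327% of all 7646 transcripts tested were, and 0 of the 11 had an unadjusted p under 0.05. No other tool was run for transcript use. The smallest unadjusted p was 0.0874, for a minor *Cops2* transcript (NM_001285513). It took 2.59%, 0.791% and 2.92% of the gene's counts in cKO and 4.38%, 13.9% and 3.57% in control libraries, which did not overlap, with control replicate 2 far above the rest. In *Gps1*, the transcript that starts further downstream (NM_145370, first base at 120784515 by GENCODE) took 59.5%, 61.9% and 61.1% of the counts in cKO and 45.97%, 52.0% and 21.4% in control libraries, and the other (NM_001177874, first base at 120784305) took the rest. The cKO libraries were alike and above all control libraries, whereas control replicate 3 was far below the other controls. In counts, the downstream transcript had 1609, 1997 and 1654 in cKO against 883, 914 and 397 in control libraries. The upstream one had 1093, 1229 and 1053 in cKO against 1038, 844 and 1462 in control libraries, and overlapped between groups. In *Cops5*, a non-coding transcript (NR_102282) took 18.1%, 5.51% and 10.6% of the counts in cKO and 4.26%, 4.37% and 4.99% in control libraries. All cKO values were higher, but cKO replicate 2 was close to the controls. The coding *Cops5* transcript NM_013715 took 76.3%, 92.3% and 86.7% in cKO and 93.7%, 94.2% and 92.8% in control libraries. Exact two-sided permutation tests gave p = 0.1 for NM_001285513, NM_145370, NM_001177874, NR_102282 and NM_013715, whose shares did not overlap. With 3 libraries per group, any share without overlap gives this p, the smallest possible, so the test cannot pass 0.05 here. In *Cops2* (NM_001285507 and NM_009939), *Cops5* (NM_001277101) and *Cops7a* (NM_001164089 and NM_012003), shares that overlapped gave p = 0.2 by exact two-sided permutation tests. For the *Cops2* transcript NM_001285512, which also overlapped, the exact two-sided permutation test gave p = 0.4. In *Cops7a*, the transcript NM_012003 took 76.6%, 67.5% and 74.1% in cKO and 64.9%, 61.6% and 67.9% in control libraries, which overlapped. Counts per transcript are estimates that split shared reads.

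**Figure D3:**
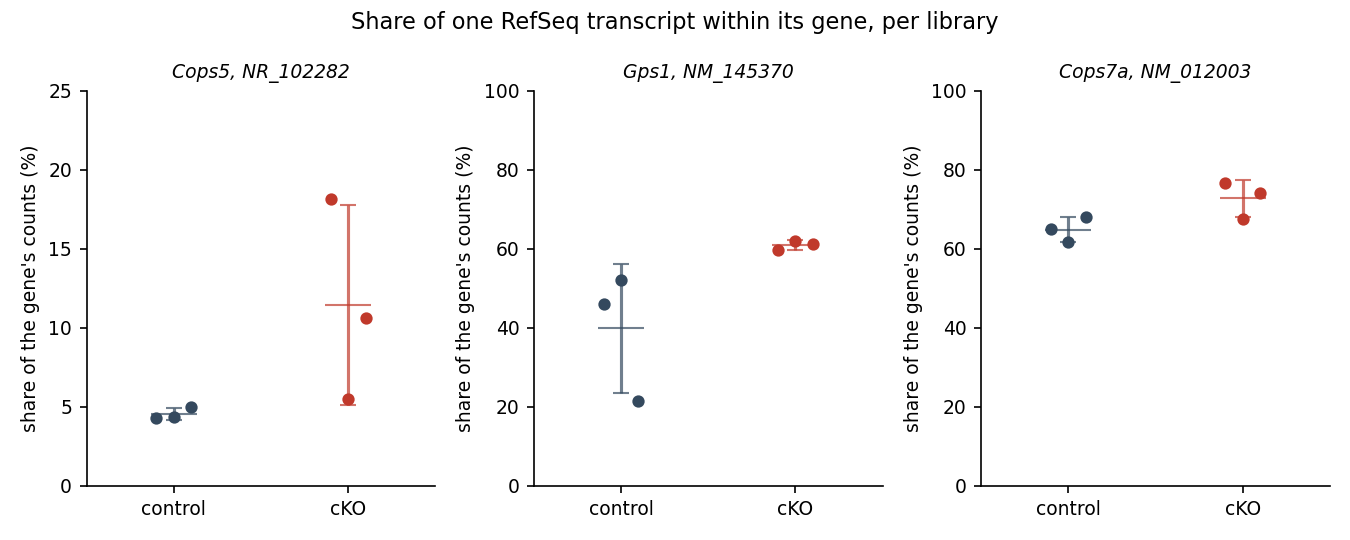
Share of a gene's counts, in percent on linear axes from 0, that went to a transcript of *Cops5* (left), *Gps1* (middle) or *Cops7a* (right), with the left axis ending at 25% and the others at 100%. Each point is a library, with the group mean and SD (n = 3). The *Cops5* and *Gps1* points do not overlap between groups and spread widely in cKO for *Cops5* and in control for *Gps1*, while the *Cops7a* points overlap.

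The sequences before the genes were searched for 9 short motifs on both strands. RefSeq promoter windows on GRCm38.p6 were found for 8 of the 9 genes, all but *Cops5* (10 windows, since *Gps1* and *Cops7a* have a pair of starts each). The motifs were the E-box CACGTG, the ETS motif CCGGAAG, the NRF1 half-site GCATGCGC, the CRE TGACGTCA, the ATF4 motif TGATGNAA, the CCAAT box CCAAT, the TATA box TATAAA, the YY1 motif AAGATGGC and the GC box GGGCGG, each sought in the 250 bases before a start. The ETS motif was in 5 of the 10 windows and in 6.90% of all 32817 windows, and the GC box in 7 of the 10 and in 32.7% of all windows. The E-box was in 2 of the 10 windows (6.02% of all windows), the CCAAT box in 1 (33.8%) and the YY1 motif in 1 (1.56%). The NRF1 half-site, CRE, ATF4 motif and TATA box were in 0 of the 10, and in 2.25%, 1.55%, 3.45% and 12.4% of all windows. The window of *Cops7b*, the subunit with the largest fold, held 0 matches to any of the motifs, and its sequence is not shown. *Gps1* and *Cops6* are shown for the genes that were higher and *Cops3* and *Cops4* for those that were lower, each as the stretch before its start that no annotated UTR covers. For *Gps1* it is the one before the downstream start, which lies within the span of the upstream transcript. Capitals mark the matches to the motifs on either strand. A match is a description of the letters and does not show that a factor binds there.
Gps1 (chr11:120784350-120784499, plus strand): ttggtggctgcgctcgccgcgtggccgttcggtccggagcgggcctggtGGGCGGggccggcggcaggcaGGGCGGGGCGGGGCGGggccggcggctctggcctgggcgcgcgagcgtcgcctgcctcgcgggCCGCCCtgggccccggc
Cops6 (chr5:138160921-138161070, plus strand): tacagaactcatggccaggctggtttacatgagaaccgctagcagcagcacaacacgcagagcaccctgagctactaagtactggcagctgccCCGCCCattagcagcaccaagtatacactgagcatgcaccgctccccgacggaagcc
Cops3 (chr11:59839839-59839988, minus strand): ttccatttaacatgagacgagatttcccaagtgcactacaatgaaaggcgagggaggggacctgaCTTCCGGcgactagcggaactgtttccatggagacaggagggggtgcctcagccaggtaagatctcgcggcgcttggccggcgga
Cops4 (chr5:100518159-100518308, plus strand): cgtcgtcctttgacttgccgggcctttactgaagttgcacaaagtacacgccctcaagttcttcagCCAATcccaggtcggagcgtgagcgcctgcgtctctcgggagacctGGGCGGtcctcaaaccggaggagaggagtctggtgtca
In these stretches, the *Gps1* and *Cops6* sequences carry GC boxes and so does that of *Cops4*, while that of *Cops3* carries the ETS motif. The same motif thus stood before genes that moved in opposite directions.

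Several of the genes lie against others. By GENCODE M21, *Cops2* overlaps *Galk2* by 31 bases, *Cops5* overlaps *Cspp1* by 182 bases, *Cops6* overlaps *Mcm7* by 64 bases, *Cops7a* overlaps the snRNA gene *Gm23851* by 103 bases and *Cops3* overlaps *Nt5m* and, by 697 bases, the antisense gene *Gm16062*, each on the opposite strand. Whether reads were counted by strand was not given in the sources used here, so reads from those stretches cannot be told apart. *Gps1* and *Rfng* start 65 bases apart on opposite strands, and *Cops7b* and *Pde6d* start 275 bases apart.

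The 2 related complexes were set beside the signalosome, subunit by subunit. In the lid of the 26S proteasome, 5 of 9 genes were higher and 0 were lower, with a median log2 fold change of 0.22, where 24.1% of all genes were higher and 24.5% lower. Its MPN pair was among the higher ones: *Psmd14*, the gene of the deubiquitinase that corresponds to *Cops5*, went from 96.3 ± 6.18 to 145 ± 2.09 CPM (log2 fold change 0.59, adjusted p = 2.46e-05 by edgeR). *Psmd7*, which corresponds to *Cops6*, went from 71.2 ± 4.15 to 98.6 ± 4.32 CPM (log2 fold change 0.47, adjusted p = 0.000152 by edgeR). In eIF3, 5 of 14 genes were higher and 4 were lower with *Eif3e* among them, or 5 and 3 of the 13 others, and the median of all 14 was −0.03. The eIF3 counts lay near the shares over all genes. The eIF3 MPN genes were lower: *Eif3f* went from 695 ± 19.1 to 616 ± 10.1 CPM (log2 fold change −0.17, adjusted p = 0.00756 by edgeR), and its partner *Eif3h* had a log2 fold change of −0.12 (adjusted p = 0.0455 by edgeR). Apart from the deleted *Eif3e*, the largest changes in eIF3 were those of *Eif3g*, which binds RNA and went from 100.4 ± 2.72 to 189 ± 9.92 CPM (log2 fold change 0.91, adjusted p = 1.92e-06 by edgeR), and *Eif3j2*, from 65.7 ± 9.01 to 108 ± 17.4 CPM (log2 fold change 0.71, adjusted p = 0.000768 by edgeR). *Eif3j2* has the near-identical copy *Eif3j1*, so its counts are uncertain. Among PCI genes, 4 of 7 were higher and 2 lower in the signalosome, 3 of 6 higher and 0 lower in the lid, and 2 of 6 higher and 2 lower in eIF3, where the deleted *Eif3e* was one of the 2 lower genes and *Eif3m* the other. The differences between the complexes were not tested.

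**Figure D4:**
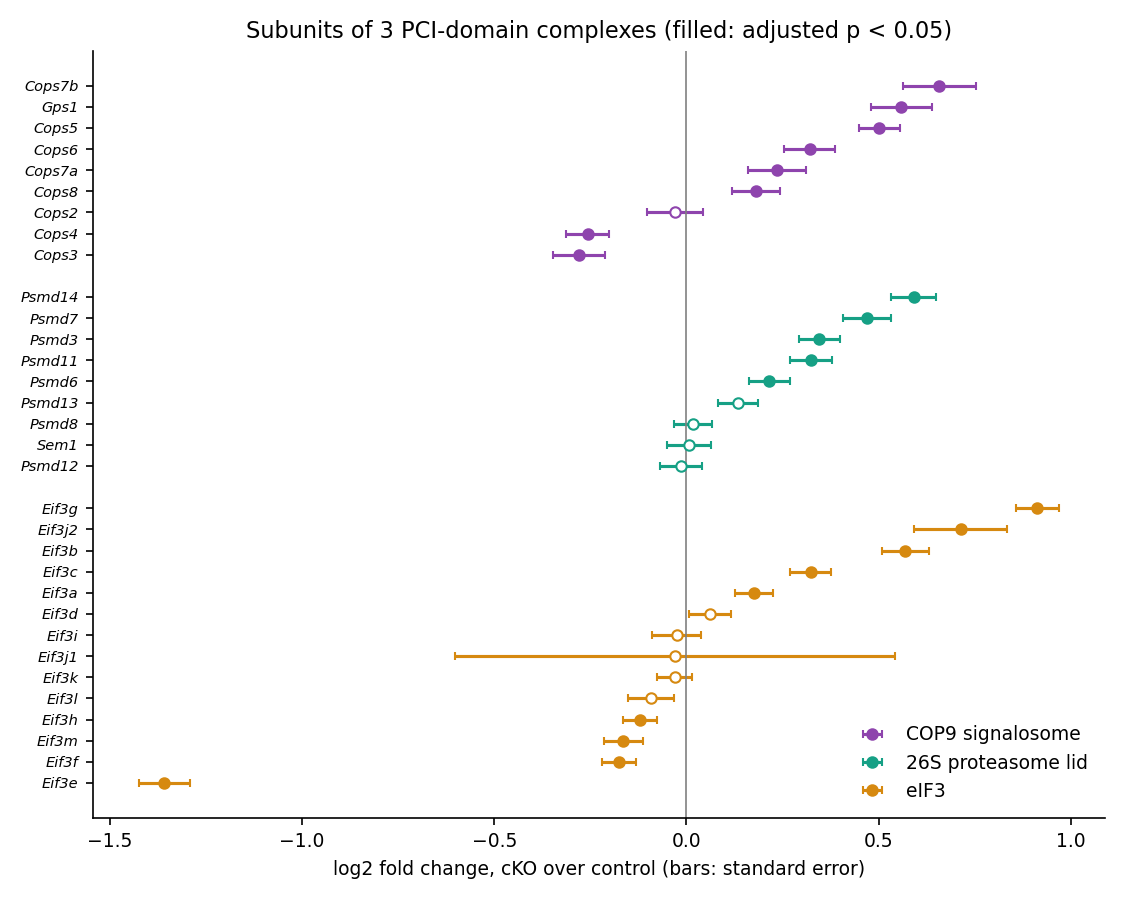
Log2 fold change of cKO over control (horizontal axis) for each subunit gene of the COP9 signalosome, the 26S proteasome lid and eIF3, sorted within each complex. Points are edgeR estimates with bars for the standard error, filled where the adjusted p was under 0.05. The signalosome runs from −0.28 to 0.66, the lid has no called gene below 0, and *Eif3e* lies apart at −1.36.

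The substrates and partners of the signalosome were described from lists written by role. Of 15 genes of the NEDD8 cycle, 6 were higher, 1 was lower and 8 were not called, with a median log2 fold change of 0.32, where 24.1% of all genes were higher and 24.5% lower. *Ube2m*, the E2 enzyme that hands NEDD8 to most cullins, rose from 98.8 ± 6.84 to 170.5 ± 5.40 CPM (SD, n = 3 each), with a log2 fold change of 0.79 (adjusted p = 6.18e-06 by edgeR). *Nedd8* itself rose from 88.9 ± 2.91 to 114 ± 2.66 CPM, with a log2 fold change of 0.36 (adjusted p = 0.000303 by edgeR). *Dcun1d4*, a co-factor of NEDD8 transfer, rose from 4.21 ± 0.322 to 7.03 ± 1.14 CPM, with a log2 fold change of 0.74 (adjusted p = 0.00515 by edgeR). The gene that was lower was *Nub1*, whose product sends NEDD8 and its conjugates to the proteasome, which fell from 159 ± 6.54 to 104 ± 2.73 CPM, with a log2 fold change of −0.61 (adjusted p = 1.18e-05 by edgeR). *Senp8*, the protease that processes NEDD8, had a log2 fold change of 0.53 and was not called (adjusted p = 0.135 by edgeR).

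Of 8 cullin genes, the scaffolds from which the signalosome removes NEDD8, 4 were higher and 1 was lower, with a median log2 fold change of 0.28, beside the same 24.1% and 24.5% of all genes. *Cul2* rose from 50.6 ± 2.75 to 79.7 ± 1.52 CPM (log2 fold change 0.65, adjusted p = 1.88e-05 by edgeR) and *Cul1*, the scaffold of the SCF ligases, from 119 ± 4.87 to 178 ± 7.39 CPM (log2 fold change 0.57, adjusted p = 2.13e-05 by edgeR). *Cul4b* fell from 119 ± 10.3 to 95.5 ± 5.30 CPM (log2 fold change −0.32, adjusted p = 0.00454 by edgeR). Of 7 adaptor and exchange factor genes, 3 were higher and 0 were lower, again beside 24.1% and 24.5% of all genes. They included *Ddb1*, the adaptor of the CUL4 ligases, which rose from 456 ± 19.9 to 626 ± 38.6 CPM (log2 fold change 0.46, adjusted p = 0.000121 by edgeR), and the elongin B gene, listed as *Tceb2*, which rose from 97.1 ± 3.88 to 117 ± 4.45 CPM (log2 fold change 0.27, adjusted p = 0.00243 by edgeR).

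Of 23 substrate receptors, which the scaffold and adaptors carry, 2 were higher, 12 were lower and 9 were not called, with a median log2 fold change of −0.19, where 24.1% of all genes were higher and 24.5% lower. The difference from the cullins was not tested. *Fbxo11*, the F-box protein that targets BCL6, fell from 158.5 ± 22.7 to 102 ± 10.1 CPM (log2 fold change −0.64, adjusted p = 0.000553 by edgeR). *Ddb2*, the CUL4 receptor that recognises ultraviolet damage in DNA, fell from 30.5 ± 1.96 to 21.5 ± 1.44 CPM (log2 fold change −0.51, adjusted p = 0.00116 by edgeR). The DCAF1 gene, listed as *Vprbp*, rose from 58.5 ± 2.57 to 85.1 ± 3.71 CPM (log2 fold change 0.54, adjusted p = 5.34e-05 by edgeR). *Fem1b*, a receptor of CUL2 ligases, rose from 126 ± 4.42 to 144.5 ± 7.79 CPM (log2 fold change 0.19, adjusted p = 0.0182 by edgeR), a call that was lost without cKO replicate 2 or 3 or control replicate 1. Of 3 genes of proteins that join or bind the signalosome (*Cops9*, *Usp15* and *Itpk1*), *Itpk1*, an inositol phosphate kinase, was called, with 40.4 ± 1.74 CPM in cKO against 34.4 ± 1.65 CPM in control (log2 fold change 0.23, adjusted p = 0.0339 by edgeR). That call was lost without cKO replicate 1 or 2 or control replicate 1 or 3.

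**Figure D5:**
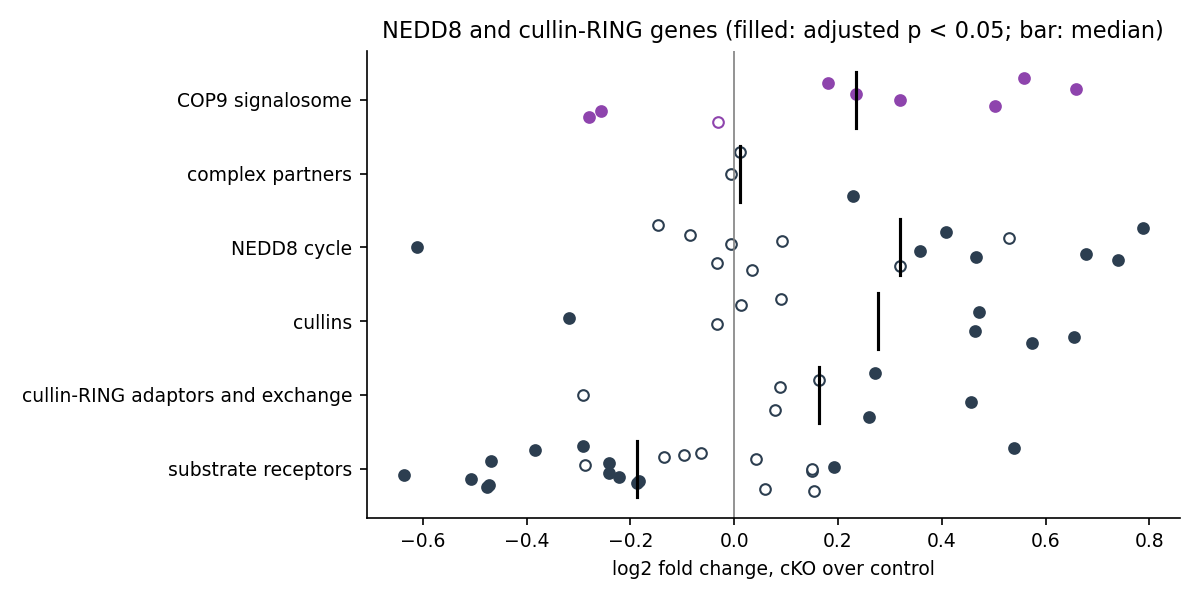
Log2 fold change of cKO over control for genes of the COP9 signalosome and of the NEDD8 and cullin-RING pathway, by role. Each circle is a gene, filled where edgeR's adjusted p was under 0.05, and the black bar is the median of the list, which lies between −0.19 for substrate receptors and 0.32 for the NEDD8 cycle.

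The pattern of *Cops5* over the 6 libraries was compared with that of 8513 genes with a mean of at least 10 CPM, by the root mean square difference of log2 CPM centred on each gene's mean. The 3 closest genes were *Chchd2* (0.0236), *Setbp1* (0.0281) and *Eef1b2* (0.0290), where the median over all genes was 0.290. *Chchd2* encodes a mitochondrial protein and averaged 259 ± 4.85 CPM in cKO against 183 ± 9.64 CPM in control. *Setbp1* was at 117 ± 1.59 and 80.2 ± 2.97 CPM, and *Eef1b2*, a subunit of the translation elongation factor eEF1B, at 1380 ± 7.82 and 964 ± 28.1 CPM (SD, n = 3 each). The nearest other subunit of the signalosome was *Gps1* (0.103), at rank 716 from the closest gene, followed by *Cops6* (0.105) and *Cops7b* (0.107). The distance largely reflects how near a gene's fold change lies to that of *Cops5*. Among the subunits it was largest for *Cops3* (0.397) and *Cops4* (0.382), which were lower in cKO. Whether subunits share a pattern beyond the fold change was not tested.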

How the data were processed

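RNA was poly(A)-selected and sequenced by the study. After trimming, the authors ran HISAT2 and StringTie (on mm10, per the submitters' processing notes) and deposited the estimated counts that prepDE gives for each gene and for each RefSeq transcript. Tool versions, the annotation and the strand setting were not given in the sources used here. The deposited estimated counts were already whole, so rounding changed nothing, and 0 columns were left unmapped. The culture lasted 3 days by the titles and treatment labels, while the growth protocol states a longer one.

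Genes were filtered with filterByExpr (minimum count 10), scaled by TMM and tested, cKO against control without covariates, with edgeR 4.0.16 (glmQLFit, glmQLFTest) in R 4.3.3 and Benjamini-Hochberg adjustment over all 13296 genes. A call is an adjusted p under 0.05. CPM per kb divides by transcript length, weighted by transcript counts. Transcript use was tested with diffSpliceDGE on 7646 transcripts, of which 25 were called and 217 had an unadjusted p under 0.05. RefSeq names matched 34674 of 36026 transcripts. Gene positions are from GENCODE M21 (GRCm38) and promoter windows from RefSeq (GRCm38.p6). The scripts were tested on simulated data. Floors cover counting error only.

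The genes and lists were chosen with earlier results of these data known. Named were all 9 subunits with values per library, *Cops9*, *Nedd8* and *Eif3e*, the 2 largest called changes in each direction of each list, and the 3 genes closest to *Cops5*. *Eif3h*, *Eif3m*, *Senp8*, *Usp15*, the cell type markers and the neighbouring genes named fall outside this rule and were chosen after their values were seen. Alternatives were DESeq2 size factors, total counts, DESeq2 1.42.0, no filter, a minimum of 10 in each library, halving of all counts (divisor 2), a replicate block, an *Xist* covariate, each library left out, and a 1.5-fold rule.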

Additional observations from a re-analysis of the deposited data

How the results depend on the processing

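Across 14 alternative settings, *Gps1*, *Cops3*, *Cops4*, *Cops5*, *Cops6* and *Cops7b* kept their call and direction in all 14, *Cops7a* and *Cops8* kept the call in 9 each, and *Cops2* was called in 0, with log2 fold changes between −0.09 and 0.04. With a 1.5-fold limit added, the count of higher subunits fell to 1 and that of lower subunits to 0. With one library left out, between 4 and 5 subunits were higher and 2 were lower, and between 5556 and 6112 genes were called. That range is set beside 6468 with all libraries, and fewer samples were tested. Whether the replicate numbers pair the samples was not settled. Deviations of same-numbered samples correlated only weakly, at 0.00851, 0.0839 and 0.133, and cKO replicate 1 correlated best with control replicate 3. With 3 libraries per group such values cannot exclude a pairing. With the replicate block, 6234 genes, 5 higher and 2 lower subunits were called, and *Cops8* was not (adjusted p = 0.0636 by edgeR). For the ratio of *Cops7b* to *Cops7a* the pairing gave p = 0.25 by an exact sign-flip test, the smallest possible with 3 pairs, and the difference lay between 0.33 and 0.49 with one library left out. DESeq2 called 6592 genes and an *Xist* covariate left 6059. For transcript use, 9 alternatives were run (a stricter filter, the replicate block, halved counts and each library left out), and edgeR called 0 subunit transcripts in each. The 3 libraries per group limit what the exact tests can show.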
